A study of Mus musculus with 2 samples.

Results

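The peaks described here lie at genes for making ribosomes, in a list of regions enriched with an anti-E2F1 antibody in primary mouse hepatocytes. Peaks were chosen by the gene symbol that the list pairs with them: Nop, Nol, Utp or Rrp followed by a digit, any symbol starting with Polr1, or Imp3, Imp4, Gar1, Nhp2, Fbl, Dkc1, Npm1 or Ncl. This took 25 of the 5667 peaks, and 22 of the 5594 genes named in the list. A gene could enter only by having a listed peak, and listing rests on the enrichment over input, so the enrichment values below are a description and carry no test. E2F1 is a transcription factor known for switching on genes of S phase entry. The group under study was E2F1 ChIP (chromatin immunoprecipitation followed by sequencing), set against input, the chromatin taken before the pull-down, with 1 record each. Both came from cultured hepatocytes of strain C57Bl6J, harvested 36 h after infection with the adenovirus Ad-E2F1. The labels do not separate E2F1 of the vector from the cells' own, and cells without the vector were not analysed here. The series text describes 2 replicates, each of 2 combined ChIPs, but the values come from 1 list with no replicate column, so none has a replicate error, and whether replicates were pooled before calling is not known here. The sequencing depth of either library is unknown, and a list of peaks holds no marker levels by which to check the cell type.

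Ribosome assembly begins in the nucleolus, where RNA polymerase I transcribes the long ribosomal RNA precursor. Small nucleolar ribonucleoproteins (snoRNPs) then modify it: those of the box C/D class guide ribose methylation, those of the box H/ACA class guide pseudouridylation. A large complex, the small subunit processome, folds and cleaves the part of the precursor that becomes the 40S subunit, and other factors build the 60S subunit. Growing and dividing cells make more ribosomes, and E2F1 and MYC are both known regulators of growth genes. The symbols chosen cover the snoRNP proteins and both subunit pathways. They cover RNA polymerase I thinly: Polr1b was the only gene of that prefix in the list, out of 5 such genes in the reference table, and its peak was not at its promoter. Nol4 carries the prefix but is in none of the lists of ribosome assembly genes used below. The set is therefore called ribosome biogenesis genes here.

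The promoters of the 4 genes with the strongest promoter peaks and of the 2 with the weakest are shown, to set these promoters side by side. Each is the RefSeq sequence from 250 bases before to 50 bases after the annotated start, written 5′ to 3′ on the strand of the gene, from build GRCm38.p6. The peaks are on build mm9, so positions within these sequences cannot be read as positions of a summit. By the list's distances, the window around the summit ended 202 bp before the start at Utp3 and 707 bp before it at Nop2. Both of these summits thus lay before the first base shown. Capitals mark an E2F motif of 8 letters (TTTCCCGC, TTTGGCGC, TTTCGCGC or TTTGCCGC on either strand) or the E-box CACGTG, the site known for MYC.
Nop58: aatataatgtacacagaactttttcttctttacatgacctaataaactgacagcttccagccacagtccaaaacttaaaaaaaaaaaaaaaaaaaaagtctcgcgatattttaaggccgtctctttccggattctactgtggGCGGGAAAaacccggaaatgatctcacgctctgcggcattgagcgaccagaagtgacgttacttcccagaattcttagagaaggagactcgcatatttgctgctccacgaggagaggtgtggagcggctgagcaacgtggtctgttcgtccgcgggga
Utp3: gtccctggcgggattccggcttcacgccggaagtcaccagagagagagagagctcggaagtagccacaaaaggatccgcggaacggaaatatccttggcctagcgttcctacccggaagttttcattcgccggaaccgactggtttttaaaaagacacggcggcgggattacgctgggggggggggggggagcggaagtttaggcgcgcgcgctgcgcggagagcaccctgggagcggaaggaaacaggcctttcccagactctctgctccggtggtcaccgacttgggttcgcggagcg
Nop56: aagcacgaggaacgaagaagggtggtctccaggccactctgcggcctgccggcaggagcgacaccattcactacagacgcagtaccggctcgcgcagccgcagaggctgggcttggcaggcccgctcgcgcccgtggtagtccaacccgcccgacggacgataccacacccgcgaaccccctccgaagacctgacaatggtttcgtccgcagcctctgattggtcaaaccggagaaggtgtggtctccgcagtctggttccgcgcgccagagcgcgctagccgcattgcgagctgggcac
Nhp2: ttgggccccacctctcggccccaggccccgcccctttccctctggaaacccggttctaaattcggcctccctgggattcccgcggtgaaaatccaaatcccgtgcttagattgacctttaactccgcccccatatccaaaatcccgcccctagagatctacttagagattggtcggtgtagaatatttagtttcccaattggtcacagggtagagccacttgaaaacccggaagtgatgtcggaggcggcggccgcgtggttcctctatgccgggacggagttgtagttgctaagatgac
Nop2: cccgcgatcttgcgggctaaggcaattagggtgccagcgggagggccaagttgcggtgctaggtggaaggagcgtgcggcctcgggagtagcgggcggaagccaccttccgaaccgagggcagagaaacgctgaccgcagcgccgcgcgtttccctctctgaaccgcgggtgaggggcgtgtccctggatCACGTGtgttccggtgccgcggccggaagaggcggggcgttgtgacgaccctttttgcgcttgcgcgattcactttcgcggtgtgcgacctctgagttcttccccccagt
Imp4: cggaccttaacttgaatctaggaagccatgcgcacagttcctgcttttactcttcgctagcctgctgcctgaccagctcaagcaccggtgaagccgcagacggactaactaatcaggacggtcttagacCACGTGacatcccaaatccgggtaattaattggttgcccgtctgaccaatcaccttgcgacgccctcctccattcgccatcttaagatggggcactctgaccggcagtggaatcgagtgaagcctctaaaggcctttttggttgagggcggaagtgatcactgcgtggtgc
Among these, the E2F motif stood in the promoter of Nop58, as its reverse-strand form GCGGGAAA at position -108 from the start. The promoters of Nop2 and Imp4, the weakest 2, held CACGTG at positions -60 and -121. Those of Utp3, Nop56 and Nhp2 held neither word.

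Of the 25 peaks, 18 lay at promoters, each at a different gene, where a promoter means at most 1000 bp between the summit and a transcription start site (TSS). That is 72.0% (exact binomial 95% interval 50.6% to 87.9%, counting error only), beside 46.1% of all 5667 listed peaks. The 2 shares differ in measure: the 46.1% counts the promoter of any gene paired with a peak, the 72.0% only that of the member gene. The Polr1b peak and the upstream Nhp2 peak lay at the promoters of other genes, Chchd5 and Hnrnpab, and are not among the 18. The median fold enrichment over input of the 18 was 5.645 (range 3.45 to 38.21, exact interval of the median 3.98 to 8.74), beside 6.48 for all 2612 promoter peaks, a value inside that interval. Fold, tag counts and pileup heights are the authors' values for each peak. Of the 18, 8 lay above and 10 below the median of all promoter peaks. A fold of at least 10 was reached by 3 of 18, or 16.7% (interval 3.6% to 41.4%), beside 21.9% of all promoter peaks. The order of the medians changed with the list: with a false discovery rate of at most 1% the median was 9.3 for the set, beside 8.43 for all promoter peaks.

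**Figure D1:**
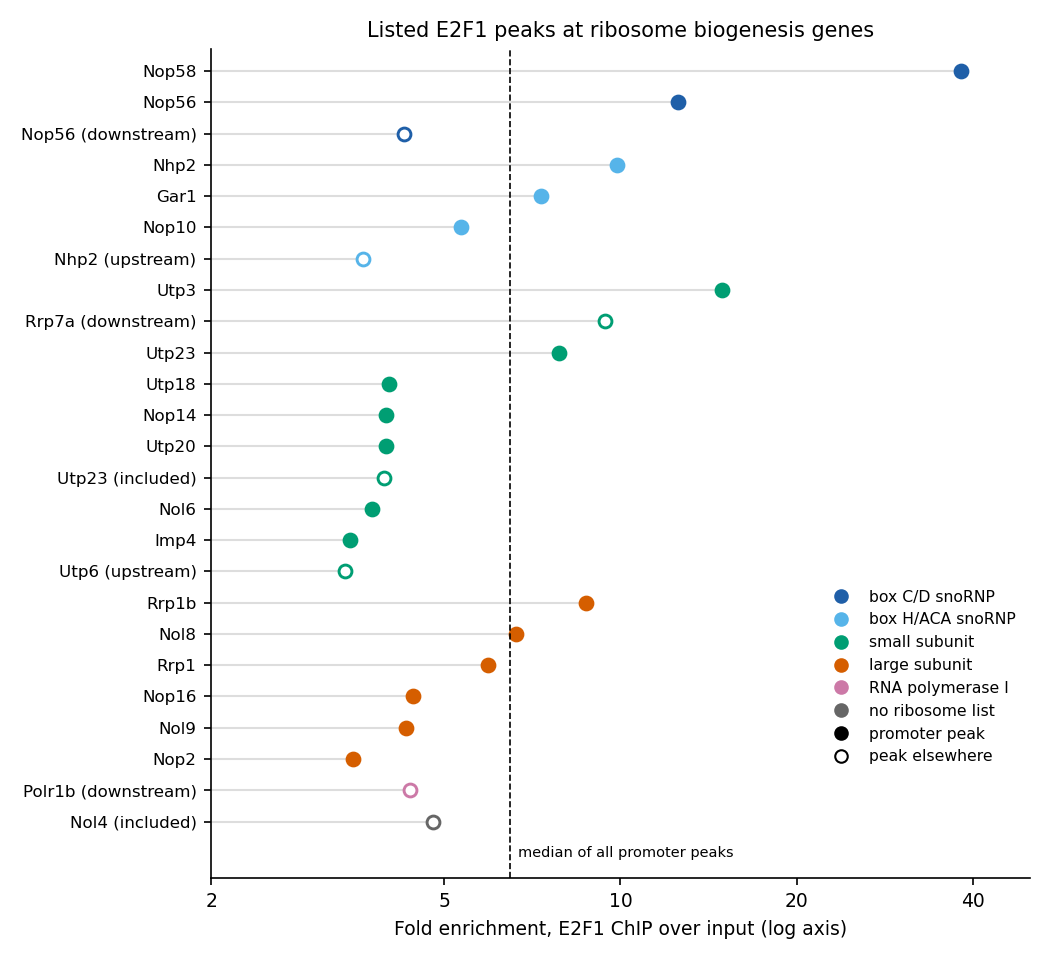
Fold enrichment of E2F1 ChIP over input (log axis) for each of the 25 peaks, by the role of the gene; filled points are promoter peaks, open points lie elsewhere, and the dashed line is the median of all promoter peaks, 6.48. Nop58 stands at 38.21, followed by Utp3 at 14.89 and Nop56 at 12.56, and 5 of the 7 small subunit promoter peaks lie at 4.03 or below.

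The strongest peak of the set lay at a box C/D snoRNP gene. Nop58, which codes for a core protein of every box C/D particle, had a fold of 38.21 and 1027 tags in a called region of 2992 bp on chromosome 1 (window around the summit 59741563 to 59741863, mm9). Its pileup reached 768 tags, the greatest height of all 5667 peaks. By tags it ranked 2 in the list and by fold 7, so the same peak was near the top on each measure. The window held the TSS. Nop56, the partner of Nop58 in the particle, had a fold of 12.56, 306 tags and a height of 129 on chromosome 2 (130099987 to 130100287), again over the TSS. A weaker peak of Nop56 (fold 4.27, 100 tags) lay 57 bp past the end of the gene (130105107 to 130105407) and also inside Idh3b, an enzyme gene of the citric acid cycle. The other genes of this class were covered unevenly. Fbl, the gene of the methyltransferase fibrillarin, had no listed peak. Snu13, the protein that binds the snoRNA fold first, is named Nhp2l1 in the list and so falls outside the symbol rule; its promoter had a fold of 20.66 with 241 tags. Rrp9, a protein specific to the U3 snoRNP, had no listed peak.

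In the box H/ACA class, 3 of the 4 core genes had a promoter peak (75.0%, exact interval 19.4% to 99.4%), beside 13.1% of all protein-coding genes. Nhp2 showed 9.86-fold enrichment with 224 tags on chromosome 11 (51433008 to 51433308), over the TSS. Gar1 reached a fold of 7.32 (257 tags) on chromosome 3 (129533951 to 129534251), where the window began 63 bp inside the gene. Nop10 reached a fold of 5.35 (231 tags) on chromosome 2 (112101965 to 112102265), over the TSS. Dkc1, the gene of the pseudouridine synthase dyskerin, lies on chromosome X and had no listed peak. A further peak was paired with Nhp2 13584 bp upstream of it, with a fold of 3.63 and 252 tags, but this window lay 697 bp inside Hnrnpab, the gene of an RNA-binding protein, which the list gives as the closer gene. The Gar1 peak was also paired with Cfi, the gene of the complement protease factor I, 5403 bp away.

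The plot of height against tag count places these peaks in the whole list. Nop58 had 74.8 tags of height per 100 tags in its region, against a median of 41.4 over all promoter peaks on the same scale. Utp20 was at the other end with 18.4, in a region of 3937 bp. The median called region was 2493 bp for the 18 promoter peaks (exact interval of the median 1530 to 2634 bp). It was 1897.5 bp for all promoter peaks, a value inside that interval.

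**Figure D2:**
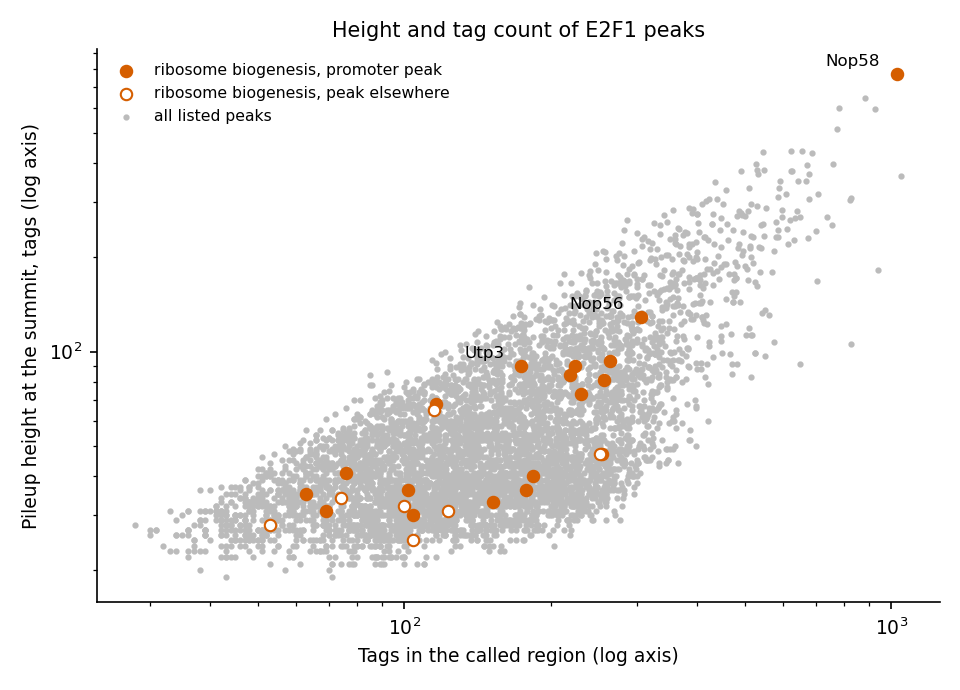
Pileup height at the summit against tags in the called region, both on log axes, for the ribosome biogenesis peaks (orange, filled at promoters and open elsewhere) and all 5667 listed peaks (grey). Nop58 is the highest point of all at 768 tags, and the other ribosome biogenesis peaks lie inside the cloud with heights of 25 to 129.

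The small subunit processome had 7 genes with a promoter peak among 22 genes that the symbol rule can take, and most of these peaks were weak. The share was 31.8% (exact interval 13.9% to 54.9%), beside 13.1% of all protein-coding genes. Roles of these proteins are known mainly from yeast. Utp3, named Sas10 in yeast, had a fold of 14.89 with 174 tags and a height of 90 on chromosome 5 (88983005 to 88983305), in a window ending 202 bp upstream of the TSS. Utp23 reached a fold of 7.85 (264 tags) on chromosome 15 (51708761 to 51709061), over the TSS, and had a weaker peak 2914 bp inside the gene with a fold of 3.95 and 74 tags. The other 5 ran from 3.45 to 4.03. Utp18 had a fold of 4.03 with 102 tags, Nop14 3.98 with 178 tags and Utp20 3.98 with 255 tags. Nol6 had a fold of 3.77 with 104 tags, in a window 803 bp upstream of the TSS and so near the edge of what counts as a promoter. Imp4, which binds the U3 snoRNA, had the lowest fold of all promoter peaks of the set, 3.45 with 184 tags on chromosome 1 (34496580 to 34496880). Utp3 and Utp23 were thus the only small subunit genes of the set whose promoter peak lay above the median of all promoter peaks.

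A pair of further small subunit genes had a listed peak that was not at the promoter. The Rrp7a peak reached a fold of 9.42 (115 tags) on chromosome 15 (82930474 to 82930774), 13088 bp past the gene and inside Serhl, the closer gene by the list. The Utp6 peak, the weakest of all 25, had a fold of 3.39 with 104 tags and lay 9539 bp upstream. The 13 small subunit genes of the symbol rule with no listed peak were Imp3, Nol7, Nol10, Nol11, Nop9, Rrp12, Rrp36, Utp4, Utp11, Utp14a, Utp14b, Utp15 and Utp25.

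Of 10 large subunit genes in the symbol rule, 6 had a promoter peak, with folds of 3.49 to 8.74. Rrp1b, related to a yeast protein of 60S assembly, reached a fold of 8.74 (116 tags) on chromosome 17 (32173157 to 32173457), in a window 112 bp inside the gene. Its paralog Rrp1 had a fold of 5.94 with only 63 tags on chromosome 10 (77875506 to 77875806), over the TSS. Nol8, a nucleolar protein gene, had a fold of 6.64 with 219 tags, in a window 392 bp upstream of its TSS. Nop16 had a fold of 4.43 with 76 tags and Nol9, a polynucleotide kinase that processes the spacer of the rRNA precursor, 4.31 with 69 tags. Nop2, a methyltransferase of the large subunit rRNA, had the lowest fold of this class, 3.49 with 152 tags, in a window 707 bp upstream (chromosome 6, 125080893 to 125081193). Nol12, Nop53, Rrp8 and Rrp15 had no listed peak.

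The only Polr1 peak reached a fold of 4.37 (123 tags) on chromosome 2 (128955480 to 128955780). Polr1b codes for a subunit of the catalytic core of RNA polymerase I, yet the window lay 3149 bp past the end of this gene and 44 bp inside Chchd5, at the promoter of that gene. Polr1a, Polr1c, Polr1d and Polr1e had no listed peak. Nol4 had a fold of 4.79 with 53 tags in a window 105347 bp inside the gene. The abundant nucleolar proteins nucleophosmin (Npm1) and nucleolin (Ncl) had no listed peak either. The list starts at a score of 50, which is the caller's p-value as a negative log10, multiplied by 10. The members nearest this limit were Utp20 with 51.88, Nol4 with 53.58, Nol9 with 54.97 and the inner peak of Utp23 with 55.31. Peaks below the limit are not in the list, so a gene without a listed peak is not shown to be unbound.

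Several of the promoter peaks served a neighbouring gene too. The promoters of 2 genes shared the peak in 6 of 18 cases, or 33.3% (exact interval 13.3% to 59.0%), beside 12.7% of all promoter peaks. With promoters of 500 bp it was 3 of 14 (21.4%), beside 11.1%, and with a false discovery rate of at most 1% it was 2 of 8 (25.0%), beside 13.7%. These pairs of shares are not on the same footing. A peak at 2 promoters could enter the set through either gene, while the shares of all promoter peaks count peaks and not genes. No excess of shared peaks can be read from them. Nol8 shared its peak (chromosome 13, 49748026 to 49748326) with Cenpp, the gene of a kinetochore protein, whose TSS the window held. The Nop16 window (chromosome 13, 54691442 to 54691742) held the TSS of both Nop16 and Higd2a, a mitochondrial assembly factor. The Imp4 peak lay 62 bp from the TSS of Ccdc115. The Nop14 peak (chromosome 5, 35002457 to 35002757) lay 270 bp from that of Grk4, a receptor kinase. Utp18 shared its peak (chromosome 11, 93746419 to 93746719) with Mbtd1, a chromatin protein, at 446 bp. Nol9 shared its peak (chromosome 4, 151413285 to 151413585) with Tas1r1, a taste receptor gene, at 607 bp. In 2 of the 18 the list gives the neighbour as the closer gene, Cenpp and Higd2a. For shared peaks the list does not show which of the genes the enrichment belongs to. The 6 shared peaks had folds of 3.45 to 6.64, and Nop58, Utp3, Nop56 and Nhp2 were not among them.

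By position, the window held the TSS at 9 of the 18 genes, lay upstream at 4 and downstream at 5. Folds ran from 3.45 to 38.21 with a median of 5.94 over the TSS. They ran from 3.49 to 14.89 upstream and from 3.98 to 8.74 downstream. These ranges overlap, and the strongest and the weakest of the 18 both lay over the TSS. The 22 genes were spread over 12 chromosomes, all of them autosomes.

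The families behind the symbol rule give the count of genes that could have been listed. Of 50 protein-coding genes of the reference table that the rule takes, 18 had a listed promoter peak (36.0%, exact interval 22.9% to 50.8%), 4 had a peak elsewhere and 28 had none listed. Over all 21900 protein-coding genes 13.1% had one. With a false discovery rate of at most 1% these shares were 16.0% (8 of 50) and 8.01%. By prefix, 6 of 8 Nop genes had a promoter peak, 4 of 11 Utp genes, 3 of 10 Nol genes, 2 of 8 Rrp genes and 0 of 5 Polr1 genes. Among the 8 genes taken by full name it was 3. These shares have no test, since the set was proposed with the peaks known.

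Genes of ribosome assembly outside the symbol rule had promoter peaks at 29 of 124, or 23.4% (exact interval 16.3% to 31.8%), beside 13.1% of all protein-coding genes. Their folds ran from 3.13 to 23.1 with a median of 6.23, beside 6.48 for all promoter peaks. The strongest was at Nolc1, which codes for a nucleolar chaperone of snoRNPs, at a fold of 23.1 with 390 tags, on chromosome 19 (46150081 to 46150381). Snu13 followed with 20.66, then Ddx27, a nucleolar RNA helicase, with 18.53 and 281 tags. Exosc2, a subunit of the RNA exosome that trims rRNA ends, had 17.01 with 280 tags. The promoters of Znhit3 and Znhit6, of box C/D snoRNP assembly, had lower folds of 6.08 with 140 tags and 3.13 with 112 tags. In the box C/D class, inside and outside the symbol rule, the 5 promoter folds thus ran from 3.13 to 38.21. Of its other 6 genes Nufip1 and Ruvbl2 had a peak elsewhere, and Fbl, Rrp9, Pih1d1 and Ruvbl1 none listed.

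RNA polymerase I came into view through genes with other names. Cd3eap, the older symbol of the subunit gene Polr1g, reached a fold of 14.44 (261 tags) on chromosome 7 (19945099 to 19945399), at a promoter shared with Ppp1r13l. Ubtf, which binds the rRNA gene promoter, reached a fold of 12.55 (180 tags) on chromosome 11 (102180500 to 102180800). Ttf1, the termination factor of this polymerase, had 7.64 with 264 tags, and Rrn3, which brings the polymerase to the promoter, 6.23. Znrd1, the older symbol of Polr1h, had 6.35 at a promoter shared with its antisense gene Znrd1as. In all, 5 of 15 genes of polymerase I and its factors had a promoter peak, and all 5 lay outside the symbol rule. That is 33.3% (exact interval 11.8% to 61.6%), beside 13.1% of all protein-coding genes. Taf1a, Taf1b, Taf1c and Taf1d, of the initiation factor that recognises the promoter, had no listed peak. Tcof1, the gene of the nucleolar protein treacle, had a fold of 9.59 with 247 tags. The kinase gene Riok2, of 40S maturation, had 9.28 with 376 tags and the 60S factor gene Nle1 9.26 with 75 tags.

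The plot of counts by pathway class gives the listed genes of each class, beside 13.1% of all protein-coding genes with a promoter peak. Promoter peaks were listed for 3 of 6 box H/ACA genes, 5 of 11 box C/D genes, 14 of 53 small subunit genes and 12 of 50 large subunit genes. Of 16 nucleolar helicases 2 had one (12.5%), near the share over all genes, and of 14 exosome genes 3 (21.4%). Exact intervals of these shares overlap, for example 16.7% to 76.6% for box C/D and 13.1% to 38.2% for the large subunit.

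**Figure D3:**
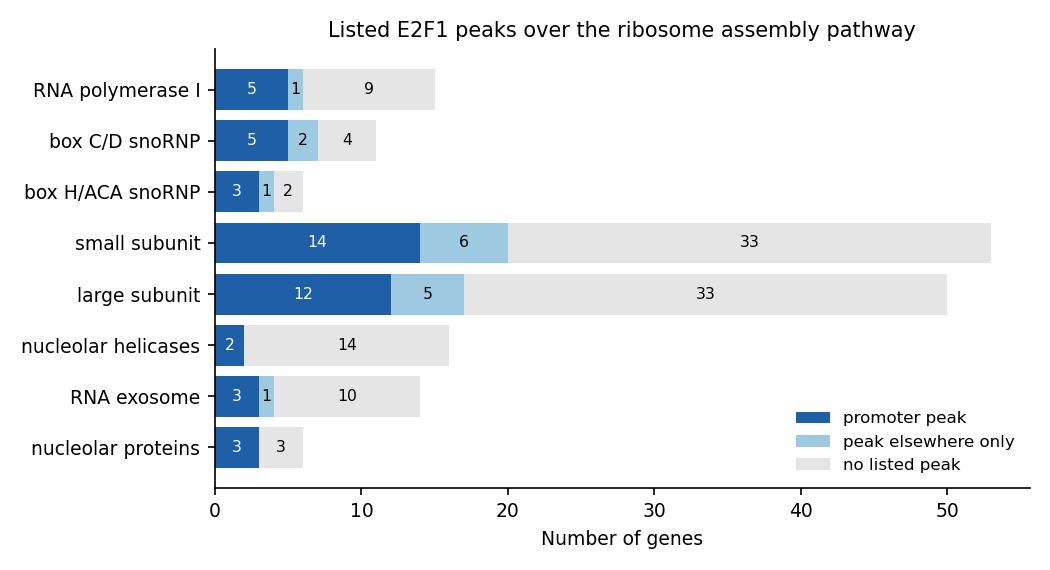
Number of genes (horizontal axis) in each class of the ribosome assembly pathway with a listed promoter peak (dark blue), a listed peak elsewhere only (light blue) or no listed peak (grey), with genes inside and outside the symbol rule together. The small subunit class has 14 of 53 genes with a promoter peak, and the RNA polymerase I class 5 of 15.

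Sequence was compared over all genes with an entry in the RefSeq promoter table, which 16 of the 18 genes with a promoter peak had. An E2F motif of 8 letters stood in 1 of the 16 promoters (6.2%, exact interval 0.2% to 30.2%), that of Nop58. It stood in 9.5% of 2370 genes with any listed promoter peak and in 3.3% of 17492 protein-coding genes. Without the first T of each form (7 letters on either strand, which every 8-letter match also holds), Nop58, Nhp2 and Nop10 matched, 3 of 16 (18.8%, interval 4.0% to 45.6%). The shares were 30.4% for all genes with a promoter peak and 13.7% for protein-coding genes. The interval of the 16, of counting error only, covers both of these shares, and a difference from either was not tested. Most of the promoters with a peak thus held none of these words in this window, which says nothing about other sequences that E2F1 may bind. At several of these genes, such as Utp3, Nol8 and Nop2, the summit lay outside this window by the list's distances. The counts therefore do not describe the sequence under the summits.

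The E-box CACGTG stood in 4 of the 16 promoters (25.0%, interval 7.3% to 52.4%): Imp4 at position -121, Nop2 at -60, Utp18 at -20 and Utp20 at 38, counted from the start. Family genes without a listed promoter peak held it in 5 of 24 cases (20.8%). The share was 12.5% for all genes with a promoter peak and 8.9% for protein-coding genes. The 4 genes with the E-box had low folds, from 3.45 to 4.03, a description made after the values were seen. By the list's distances, the window around the summit lay 707 bp upstream of the TSS at Nop2. It lay 361 bp downstream at Utp18 and 46 bp downstream at Utp20. The summits of Nop2, Utp18 and Utp20 were thus outside the bases searched, while the window at Imp4 held the TSS. A link of E-box and fold was not tested. The promoter of Nop58 held the E2F motif and no E-box. No promoter of the 16 held both an E-box and an E2F motif, so an overlap of these words could not occur. Most of the 16 were rich in CpG, with a median observed-to-expected ratio of 0.81 (range 0.38 to 1.29). This ratio was 0.83 in all genes with a promoter peak and 0.58 in protein-coding genes. The GC content had a median of 56.8% in the 16 and 61.0% in all genes with a promoter peak.

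**Figure D4:**
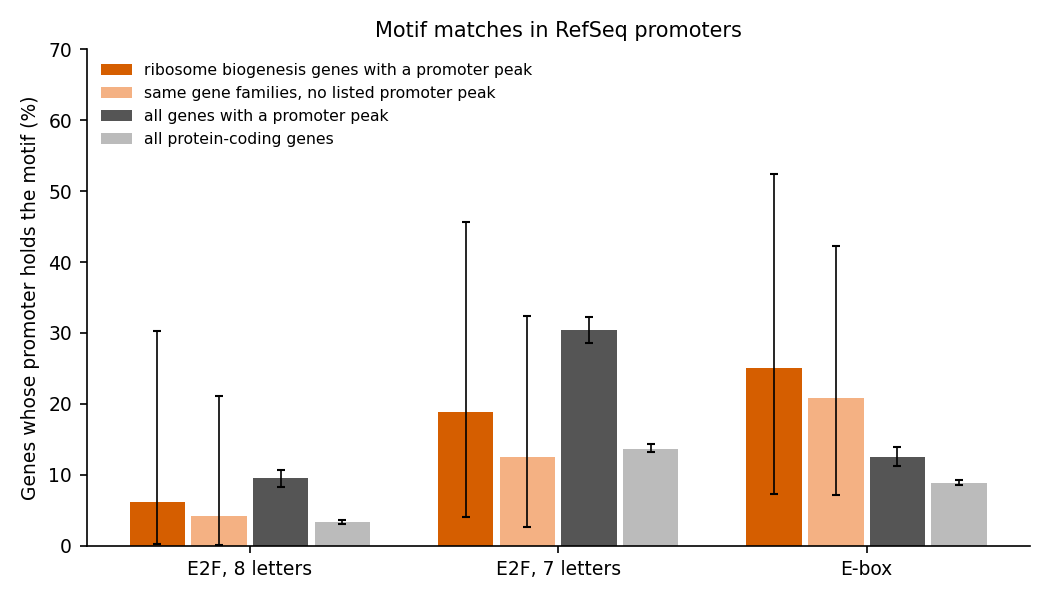
Percent of genes (vertical axis) whose RefSeq promoter holds the E2F motif of 8 letters, that of 7 letters or the E-box, for ribosome biogenesis genes with a promoter peak (16 genes), genes of the same families without one (24), all genes with a promoter peak (2370) and all protein-coding genes (17492); bars start at 0 and lines are exact 95% binomial intervals. The intervals of both ribosome biogenesis groups are wide and cover the shares of all genes with a promoter peak and of protein-coding genes for each of the 3 motifs.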

How the data were processed

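E2F1 ChIP and input chromatin were fixed in 1% formaldehyde for 10 min and sonicated in 14 pulses of 30 s, per the labels' protocols. Reads were aligned with Bowtie2 (2.1.0) to mm9 (NCBIM37), per the submitters' processing notes, and MACS was the peak caller, per the file headers. No source used here gives its settings, the handling of reads with several matches or how peaks entered the list. The deposited values per peak are the count of tags, the pileup signal at the summit, the ratio of ChIP tags to expected background (fold), a score of 10 times the negative log10 of the p-value, and the false discovery rate as a percent.

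The symbol rule was applied with pandas 2.3.3. A promoter peak had at most 1000 bp from summit to TSS (850 bp from the edge of its 301 bp window). For peaks downstream of a gene the authors' distance was taken as that to the gene end, and these were never promoter peaks. Coordinates are counted from 1. Of 5587 symbols 5493, the 22 members among them, matched a RefSeq table of GRCm38.p6, used for names, coding status and promoter sequences. Polr1f, Polr1g and Polr1h were looked up as Twistnb, Cd3eap and Znrd1. Intervals are exact (Clopper-Pearson, 95%, scipy 1.17.1) and cover counting error only. The set and the 171 pathway genes, 47 of them in the symbol rule, were chosen with earlier results of these data known. Fold and tags are given for the 10 strongest and 3 weakest promoter genes, members with 2 or more peaks, a peak off the promoter or a shared promoter, and the 10 strongest other pathway genes. Rrn3, Znrd1, Znhit3, Znhit6 and Wdr43 were named outside this rule, after their values were seen. With 1 record per group no test was run. The promoter rule and the motif search were tested on simulated data.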

Additional observations from a re-analysis of the deposited data

How the results depend on the processing

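No paired analysis was possible because the labels give 1 record per group. With promoters of 500 bp, 5000 bp or the authors' class, the 18 promoter peaks of the set became 14, 19 and 18, and the 3 genes with a fold of at least 10 stayed 3 under every setting run. Shared promoter peaks numbered 6, but 3 with promoters of 500 bp. They numbered 0 when only the closest gene was counted, which that setting fixes. Stricter lists held fewer members. Among the 2833 peaks with the lowest caller's p there were 9 promoter peaks (9 of 50 family genes), 2 of them shared, and 19 of 124 other pathway genes; the shares were 18% for the family and 9.35% for protein-coding genes. With a false discovery rate of at most 1% there were 8 promoter peaks (8 of 50 family genes), 2 of them shared, 16 other pathway genes and a median fold of 9.3; the shares were 16.0% and 8.01%. The median fold was 6.63 with promoters of 500 bp, beside 6.67 for all such peaks, and 8.74 in the list with the lowest p, beside 7.82. The E2F motif count of 1 was 3 with 7 letters, and the E-box count of 4 was 9 with CACGCG allowed as well. These 9 of 16 made 56.2% (exact interval 29.9% to 80.2%), beside 31.6% of all genes with a promoter peak. The share was 41.7% for family genes without a listed promoter peak and 20.8% for protein-coding genes. Of these shares, that of protein-coding genes lay below the interval, and none was tested. A stricter list can only lower a count of peaks, and looser words can only raise a count of matches. Leaving out Nol3 and Nol4 could not change a count of promoter peaks, since neither gene had one. Unknown depth limits what the absence of a listed peak can show.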

Other observations

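Some genes of the ribosome biogenesis families contain snoRNA genes in the RefSeq table (strand not compared). SnoRNAs in introns are known as guides of rRNA modification that are released from the host gene's transcript. Of the 50 family genes 5 did so. Nop56 held 5 snoRNA genes, among them Snord57 and Snord110, and Nop58 held 4, among them Snord11 and Snord70. Both had strong promoter peaks, with folds of 12.56 and 38.21. The other hosts, Ncl with 2 snoRNA genes and Nop53 and Dkc1 with 1 each, had no listed peak. Thus 2 of the 5 hosts had a promoter peak, near the share of 18 of 50 (36.0%) in the whole family. A link between holding snoRNA genes and having a peak was not tested. Outside the symbol rule, Wdr43, a processome gene with 3 snoRNA genes including Snord53 and Snord92, had a promoter peak with a fold of 6.83 and 84 tags. Gnl3, a gene of 60S assembly that held 3, had no listed peak, nor did Taf1d, which held 6, and Tsr1, which held 1. Ppan, which held 2, had listed peaks away from its promoter.

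The word CCGGAAGT, known as a site of ETS factors, was searched after the promoter sequences had been seen. It stood on either strand in 3 of the 16 promoters (18.8%, exact interval 4.0% to 45.6%), those of Utp3, Nhp2 and Gar1. Family genes without a listed promoter peak held it in 6 of 24 cases (25.0%), all genes with a promoter peak in 10.7% and protein-coding genes in 5.7%. These shares were not tested.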
